A study of Mus musculus with 4 samples.

Results

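The genes of mitochondrial oxidative phosphorylation were compared between mouse embryonic fibroblasts lacking Mll1 (Mll1-/-) and wild-type fibroblasts. The set holds each gene whose array symbol begins with Nduf, Uqcr, Sdha, Sdhb, Sdhc, Sdhd or Atp5, or with Cox followed by 4, 5, 6, 7 or 8. It comprises 94 genes, measured by 135 array features, of 19087 genes with a singly named feature. By prefix, 43 genes belonged to complex I, 8 to complex II, 8 to complex III, 18 to complex IV and 17 to complex V. The prefixes also take in assembly factors, and they leave Ndufa4, now known as a subunit of complex IV, under complex I.

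Oxidative phosphorylation is the stage of respiration in which the inner mitochondrial membrane turns reducing power into ATP. Complexes I and II pass electrons from NADH and succinate to ubiquinone, complex III passes them to cytochrome c, complex IV reduces oxygen, and complex V (ATP synthase) uses the resulting proton gradient. All of these except complex II combine subunits made from nuclear genes with subunits made from mitochondrial DNA, and several complex IV subunits exist as alternative isoforms found in heart and skeletal muscle, lung or testis.

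Total RNA of the Mll1-/- line and of the wild-type line, both grown in medium with fetal bovine serum, was hybridised together on each of 4 Agilent whole-genome arrays. Knockout RNA carried the red dye Cy5 on arrays 1 and 3 and the green dye Cy3 on arrays 2 and 4. Mll1, now named Kmt2a, encodes a methyltransferase for lysine 4 of histone H3. The labels give no treatment, passage, age or number of independent lines, so genotype and cell line cannot be told apart. Nor do they state whether the 4 RNA pairs were grown separately, so a p-value here measures array-to-array spread that could be purely technical.

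Each value is a log2 ratio, with values above 0 higher in Mll1-/- cells. The direction is likely rather than certain: sample titles name the mutant first, and turned this way Kmt2a was lower, at −1.61, −1.58, −1.01 and −0.78 on arrays 1 to 4 (mean −1.24 ± 0.42, SD, n = 4, 2.37-fold, limma adjusted p = 0.0138). Since that gene helped to settle the direction, it is no separate check of it. If the ratios ran the other way, each rise below would be a fall of the same size, so that Cox7a1 would rise most, Cox6b2 fall most and complex I have the highest median. Array medians lay between −0.02 and 0.03, and pairs of arrays correlated at r = 0.72 to 0.85 across features. Channel intensities were not used here, so signal over background is unknown, and precision is limited by having 4 arrays. Ratios show differences between the lines and not levels, so the fibroblast label could not be checked by level. Of 10 fibroblast markers tested, 5 were higher and 4 lower in Mll1-/- cells, against 29.1% and 30.1% of all genes. In bulk RNA, fewer cells of a type and less RNA per cell cannot be told apart.

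Of the 94 genes, 91 had at least 1 feature with a value on all 4 arrays and were tested within the fit of all 14222 genes (limma, Benjamini-Hochberg adjusted p under 0.05). Among them 26 (28.6%) were higher in Mll1-/- cells and 30 (33.0%) were lower, and 35 did not pass. In either direction 56 of the 91 were called, against 59.2% of all genes. The shares over all genes tested were 29.1% higher and 30.1% lower, so in this fit the set was called about as often as genes in general, in both directions. With 1 array left out, 14.3% to 15.4% of the set were higher and 14.3% to 16.5% lower, against 17.8% to 20.1% and 20.2% to 21.1% of all genes. At a threshold of at least 2-fold, Ndufs6 and Cox6b2 (2.20% of the set) were higher, against 6.30% of all genes. Cox7a1 (1.10%) was lower by as much, against 8.06% of all genes. The set's median log2 ratio was −0.01, and that of all genes −0.00. The middle 50% of its members lay between −0.25 and 0.20, against −0.35 and 0.33 for all genes. The median absolute log2 ratio was 0.24, against 0.34 for all genes, and the median SD over arrays was 0.09, against 0.17.

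The members not tested were 3 isoforms of complex IV with restricted expression. Cox7b2 had a value on array 1 alone (−0.42), Cox8c on array 1 alone (−1.41), and Cox8b on arrays 2 and 4 (−1.29 and −1.21). What a blank means is not given in the sources used here, and no fold was computed for them.

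The promoters of 3 members with large changes are shown because they differ in the motifs through which respiratory genes are commonly regulated. NRF1, GABPA of the ETS family, YY1 and Sp1 are transcription factors known to bind promoters of respiratory chain genes. The windows are RefSeq sequence of build GRCm38.p6, 250 bases up to the gene's start, 5′ to 3′ on the gene's strand, with a matched motif in capitals. Ndufa11 lies at chr17:56717512-56717761 on the plus strand, Cox6b2 at chr7:4753095-4753344 on the minus strand and Cox7a1 at chr7:30183921-30184170 on the plus strand.
Ndufa11: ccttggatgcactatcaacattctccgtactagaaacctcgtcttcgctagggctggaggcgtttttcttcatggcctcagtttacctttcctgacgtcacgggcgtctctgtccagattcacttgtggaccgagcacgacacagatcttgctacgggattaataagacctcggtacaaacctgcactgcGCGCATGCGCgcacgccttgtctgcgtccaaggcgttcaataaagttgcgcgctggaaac
Cox6b2: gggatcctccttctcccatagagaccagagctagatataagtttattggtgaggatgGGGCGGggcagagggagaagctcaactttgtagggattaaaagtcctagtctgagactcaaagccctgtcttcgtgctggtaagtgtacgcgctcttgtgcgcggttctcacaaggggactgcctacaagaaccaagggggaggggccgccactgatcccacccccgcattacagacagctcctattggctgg
Cox7a1: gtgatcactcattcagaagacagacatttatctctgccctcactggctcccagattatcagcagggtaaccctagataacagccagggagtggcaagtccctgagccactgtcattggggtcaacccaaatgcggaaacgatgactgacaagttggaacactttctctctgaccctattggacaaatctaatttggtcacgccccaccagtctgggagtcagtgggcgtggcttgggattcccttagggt
The Ndufa11 promoter holds the NRF1 palindrome, the Cox6b2 promoter holds the Sp1 motif, and the Cox7a1 window holds none of the motifs searched. Ndufs6, which changed more than Ndufa11, has the YY1 motif in its 300-base window, which is not printed.

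The NRF1 palindrome was found in the promoters of 7 members, and 30 bases around each match are shown to compare its setting in genes that rose and fell. Each line is on the gene's strand, with the palindrome in capitals.
Atp5g2: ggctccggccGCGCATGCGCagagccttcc
Atp5k: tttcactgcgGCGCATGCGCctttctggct
Cox6a1: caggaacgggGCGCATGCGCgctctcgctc
Ndufa11: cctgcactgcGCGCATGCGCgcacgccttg
Ndufaf4: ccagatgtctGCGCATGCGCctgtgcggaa
Ndufaf5: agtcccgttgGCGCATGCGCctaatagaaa
Uqcrc1: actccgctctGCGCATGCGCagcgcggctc
These windows lie at chr15:102671070-102671099 (Atp5g2, minus), chr5:108434430-108434459 (Atp5k, minus), chr5:115349101-115349130 (Cox6a1, minus), chr17:56717692-56717721 (Ndufa11, plus), chr4:24897960-24897989 (Ndufaf4, plus), chr2:140170652-140170681 (Ndufaf5, plus) and chr9:108936668-108936697 (Uqcrc1, plus). Ndufaf4 and Uqcrc1 were higher in Mll1-/- cells, Atp5g2, Cox6a1, Ndufa11 and Ndufaf5 were lower, and Atp5k did not pass. The palindrome thus stood in promoters of genes called in opposite directions. The call of Ndufaf4 rests on a mean of features that were themselves called in opposite directions.

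Over the 79 members with a promoter window in the RefSeq table (300 bases, 250 before and 50 after the start), each motif was searched on both strands. The palindrome was in 8.86% of members, against 1.97% of the 11448 tested genes with a window and 1.07% of all 27025 genes in the table. Its left part GCGCATG, which lies within the palindrome, was in 19.0% of members against 7.02% of tested genes and 4.41% of all genes. The ETS motif CCGGAAG was in 26.6%, against 17.5% and 9.93%, and the YY1 motif AAGATGGC in 12.7%, against 4.72% and 3.19%. The Sp1 motif GGGCGG was in 48.1% of members, against 63.4% of tested genes and 38.2% of all genes. TATAAA was in 11.4%, against 10.9% and 15.7%. By response, the ETS motif was in 7 of 21 higher, 7 of 25 lower and 7 of 31 other tested members. The YY1 motif was in 4, 2 and 4 of these groups, and the Sp1 motif in 11, 12 and 14. The left part of the palindrome was in 5 higher, 7 lower and 3 other members (23.8%, 28.0% and 9.68%), and TATAAA in 1, 3 and 3. A match to these letters is a description and not evidence of binding.

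**Figure D1:**
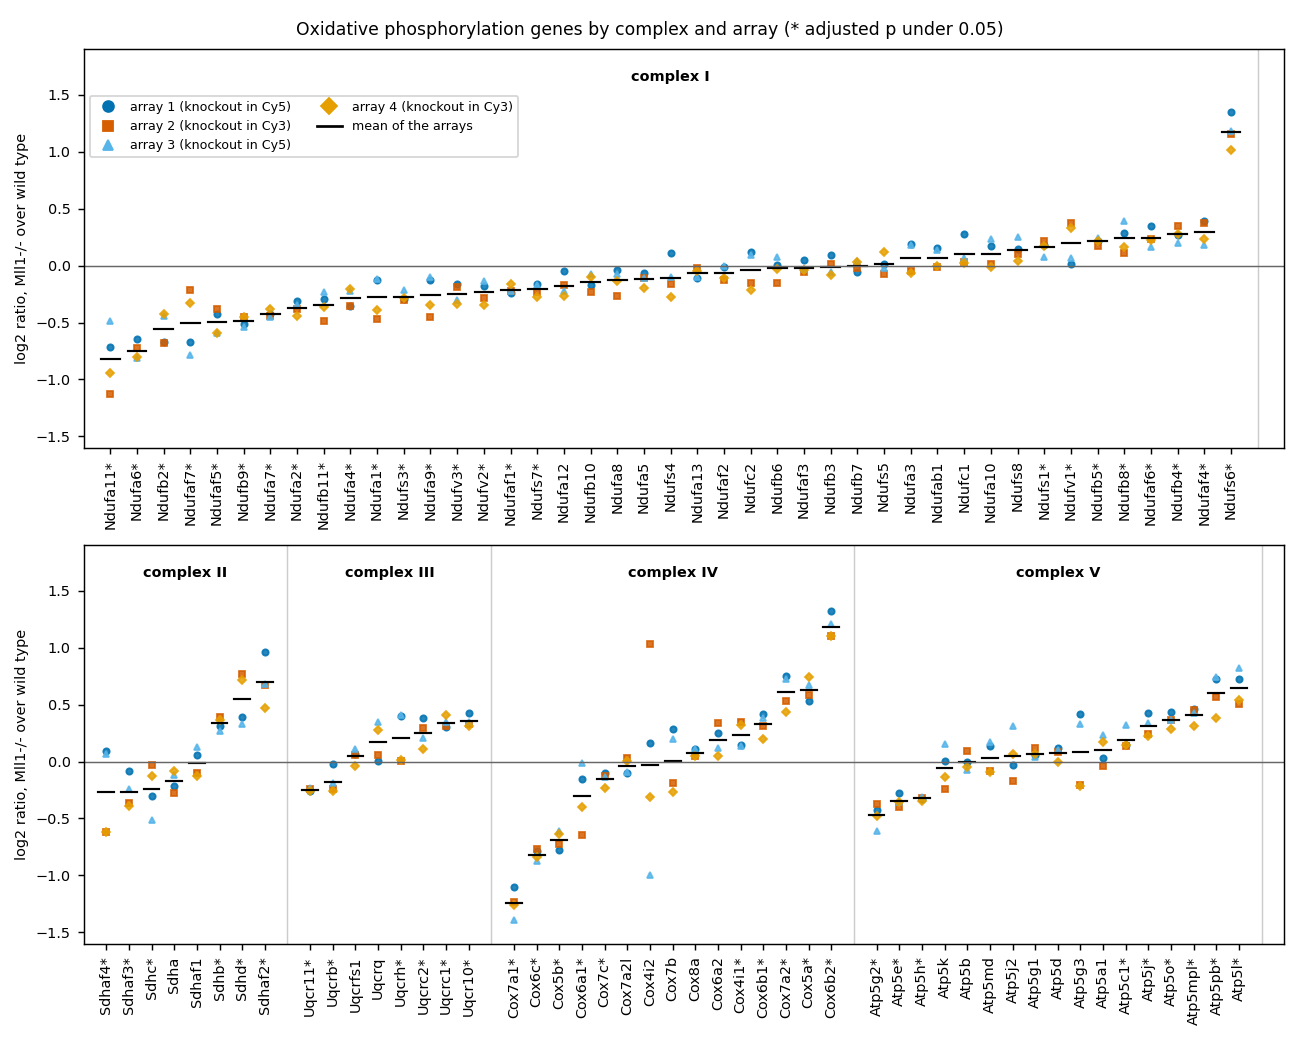
Log2 ratio (Mll1-/- over wild type, vertical axis) of each of the 91 tested members on each array, ordered by mean within its complex, with symbols for arrays and a black line for the mean. Ndufs6 and Cox6b2 stand above 1 and Cox7a1 below −1 on every array, and most other members lie within 0.5 of 0.

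Complex I had the most members and leaned towards lower ratios. Of 43 tested genes, 8 (18.6%) were higher and 17 (39.5%) lower in Mll1-/- cells, against 29.1% and 30.1% of all genes. Its median log2 ratio was −0.10, with −0.05, −0.15, −0.07 and −0.13 on arrays 1 to 4.

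Ndufs6, a zinc-binding accessory subunit of the arm that takes up NADH, rose most in the complex. Its log2 ratios were 1.35, 1.16, 1.19 and 1.02 on arrays 1 to 4 (mean 1.18 ± 0.14, SD, n = 4, 2.26-fold, limma adjusted p = 0.00135). All 4 arrays lay above 1, and 3 features of the gene, all for the same RefSeq mRNA, gave means from 1.16 to 1.19. Whether these 3 features hold different probes is unknown. The other rises of the complex were small. Ndufaf4, an assembly factor, had 0.39, 0.38, 0.18 and 0.23 (mean 0.29 ± 0.11), the accessory subunit Ndufb4 had 0.27, 0.35, 0.19 and 0.28 (mean 0.27 ± 0.06), and Ndufaf6, another assembly factor, had 0.35, 0.24, 0.17 and 0.23 (mean 0.25 ± 0.08). The means of these 3 genes were above 0 on each array. That of Ndufaf4 averages features at −0.71, 0.73 and 0.86, each past the threshold.

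Ndufa11, a subunit of the membrane arm, fell most, with −0.72, −1.13, −0.48 and −0.94 on arrays 1 to 4 (mean −0.82 ± 0.28, SD, n = 4, 1.76-fold lower, limma adjusted p = 0.00349). It was lower on each array, more so on arrays 2 and 4, where the knockout RNA carried Cy3. Ndufa6, a subunit that holds the mitochondrial acyl carrier protein, fell evenly, with −0.64, −0.73, −0.81 and −0.80 (mean −0.75 ± 0.08, 1.68-fold lower, adjusted p = 0.00251). Ndufb2, a membrane-arm subunit, had −0.67, −0.68, −0.45 and −0.43 (mean −0.55 ± 0.14, adjusted p = 0.00936). Ndufaf7, an assembly factor, had −0.67, −0.21, −0.79 and −0.33 (mean −0.50 ± 0.27, adjusted p = 0.00448). Its values on arrays 1 and 3 lay well below those on arrays 2 and 4, the reverse of the dye pattern of Ndufa11.

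The core subunits, among which are the carriers of flavin and iron-sulfur clusters, moved little and both ways. Of 6 tested, Ndufs1 (0.16 ± 0.06) and Ndufv1 (0.20 ± 0.19) were higher, and Ndufs3 (−0.27 ± 0.04), Ndufv2 (−0.24 ± 0.09) and Ndufs7 (−0.21 ± 0.06) were lower (SD, n = 4). The limma adjusted p of these 5 calls ran from 0.0103 (Ndufs3) to 0.0408 (Ndufs1). How they held in the alternatives is not given here. Ndufv1 and Ndufv2, which together accept electrons from NADH, were thus called in opposite directions. Less the median of the other genes of its chromosome, Ndufv1 was 0.04 and Ndufv2 −0.12. Ndufv1 had 0.01, 0.38, 0.07 and 0.33 on arrays 1 to 4, close to 0 where the knockout RNA carried Cy5. Of 29 accessory subunits, 4 were higher and 10 lower, and of 7 assembly factors 2 were higher and 3 lower. Ndufa4 was lower, with −0.35, −0.36, −0.22 and −0.21 (mean −0.28 ± 0.08). Ndufb7, a membrane-arm subunit, lay nearest to 0 (mean −0.00 ± 0.05).

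Of the named calls in complex I, those of Ndufb4, Ndufaf4, Ndufaf6 and Ndufa4 were lost in some alternatives, including when any 1 of the 4 arrays was left out. Over all alternatives run, their highest limma adjusted p was 0.813, 0.114, 0.112 and 0.115, the first of these relative to the chromosome median.

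In complex II, 3 of 8 genes were higher and 3 lower (37.5% each), against 29.1% and 30.1% of all genes. Sdhd, one of the membrane anchors that hold the complex at the ubiquinone site, had 0.39, 0.77, 0.33 and 0.71 on arrays 1 to 4 (mean 0.55 ± 0.22, SD, n = 4, 1.47-fold, limma adjusted p = 0.00264). Its partner anchor Sdhc had −0.30, −0.03, −0.51 and −0.13 (mean −0.24 ± 0.21, adjusted p = 0.0343). The anchors did not overlap on any array, with Sdhd above 0 and Sdhc below 0 throughout. Sdhb, the iron-sulfur subunit, had 0.31, 0.39, 0.27 and 0.37 (mean 0.34 ± 0.06, adjusted p = 0.00601), and Sdha, the flavin-carrying subunit that oxidises succinate, did not pass (−0.17 ± 0.09).

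Among the assembly factors of complex II, Sdhaf2, which helps attach flavin to Sdha, had a mean of 0.70 ± 0.20 (adjusted p = 0.00612). That value rests on a single feature designed on a cDNA clone, with a mean of 2.60. The gene's other 3 features gave 0.02, 0.07 and 0.11 and did not pass, and without the clone feature the gene's mean was 0.07. Sdhaf3, which helps insert iron-sulfur clusters into Sdhb, had −0.08, −0.36, −0.24 and −0.39 (mean −0.27 ± 0.14, adjusted p = 0.0165). With features that had values on at least 3 arrays it was −1.17 and did not pass (adjusted p 0.222), since a second feature stood at −6.92 on array 1.

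Sdhaf4, another factor for the flavin step, was called lower (mean −0.27 ± 0.41, adjusted p = 0.00902) although its values were 0.10, −0.62, 0.07 and −0.62. It was above 0 where the knockout RNA carried Cy5 and below 0 where it carried Cy3, and the model's dye term took up that gap. It was the single called member of 56 whose arrays differed in sign. Sdhaf1, a factor for the iron-sulfur clusters, lay nearest to 0 (mean −0.01 ± 0.12). The calls of Sdhc and Sdhaf3 were lost when any 1 array was left out, and that of Sdhb when arrays 1 and 2, and 3 and 4, were averaged (adjusted p 0.0504).

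Complex III leaned the other way from complex I. Of its 8 genes 4 (50%) were higher and 2 (25%) lower, against 29.1% and 30.1% of all genes. Its median was 0.19, with array medians of 0.18, 0.06, 0.28 and 0.06. Uqcr10, a small subunit, had 0.43, 0.33, 0.35 and 0.31 on arrays 1 to 4 (mean 0.36 ± 0.05, SD, n = 4, 1.28-fold, limma adjusted p = 0.00599). The core proteins Uqcrc1 and Uqcrc2, which form the matrix-facing part, were both higher. Uqcrc1 had 0.30, 0.32, 0.34 and 0.41 (mean 0.34 ± 0.05, adjusted p = 0.00693), and Uqcrc2 had 0.38, 0.29, 0.21 and 0.11 (mean 0.25 ± 0.12, adjusted p = 0.0365). Uqcrh, the hinge protein at cytochrome c1, had 0.40, 0.00, 0.41 and 0.01 (mean 0.20 ± 0.23, adjusted p = 0.0165). It was clearly above 0 where the knockout RNA carried Cy5 and close to 0 on both other arrays.

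The small subunits Uqcr11 and Uqcrb were lower. Uqcr11 was even across arrays, with −0.26, −0.24, −0.23 and −0.26 (mean −0.25 ± 0.01, adjusted p = 0.0109), and Uqcrb had −0.02, −0.24, −0.19 and −0.26 (mean −0.18 ± 0.11, adjusted p = 0.0465). Uqcrfs1, the Rieske iron-sulfur protein at the catalytic centre, lay nearest to 0 (mean 0.05 ± 0.06). Leaving out any 1 array lost the calls of Uqcrc2, Uqcrh, Uqcr11 and Uqcrb, and leaving out array 3 lost that of Uqcrc1 (0.33, adjusted p 0.0512). The call of Uqcr10 held in all 15 alternatives run.

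Complex IV had the widest range of ratios, with its largest changes in isoforms. Of 15 tested genes, 5 were higher and 5 lower (33.3% each), against 29.1% and 30.1% of all genes. The other 5 did not pass, and the median was 0.01. Among the widely expressed subunits, Cox5a, a matrix-side subunit, had 0.53, 0.58, 0.67 and 0.74 on arrays 1 to 4 (mean 0.63 ± 0.09, SD, n = 4, 1.55-fold, limma adjusted p = 0.00377). Cox5b, a zinc-binding subunit on the same side, went the other way, with −0.77, −0.73, −0.61 and −0.64 (mean −0.69 ± 0.08, 1.61-fold lower, adjusted p = 0.00289). The small membrane subunit Cox6c fell more, with −0.79, −0.77, −0.87 and −0.84 (mean −0.82 ± 0.05, 1.76-fold lower, adjusted p = 0.00155). Each of these 3 genes kept to 1 side of 0 on all arrays, and their calls held in each alternative run. Cox7b, another small membrane subunit, had 0.29, −0.19, 0.20 and −0.27, above 0 with the knockout RNA in Cy5 and below 0 with it in Cy3 (mean 0.01 ± 0.28, not past). Cox8a, the widely expressed form of the smallest subunit, did not pass either (mean 0.08 ± 0.03).

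Of the isoform pairs of complex IV, Cox7a1 and Cox7a2 were called in opposite directions. Cox7a1, the form of heart and skeletal muscle, fell most of the tested members, with −1.10, −1.23, −1.39 and −1.26 (mean −1.24 ± 0.12, SD, n = 4, 2.37-fold lower, limma adjusted p = 0.00167). Cox7a2, the widely expressed form, rose, with 0.75, 0.54, 0.72 and 0.43 (mean 0.61 ± 0.15, 1.53-fold, adjusted p = 0.00244). The log2 ratio of Cox7a1 minus that of Cox7a2 was −1.85 and −1.77 on arrays 1 and 2 and −2.11 and −1.69 on arrays 3 and 4, a mean of −1.85 ± 0.18. Cox7a2l, which joins complexes III and IV into supercomplexes, did not pass (mean −0.04 ± 0.07).

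Cox6b2, known as the testis form, rose most of the tested members, with 1.32, 1.10, 1.21 and 1.10 (mean 1.18 ± 0.11, SD, n = 4, 2.27-fold, limma adjusted p = 0.00096). Its widely expressed partner Cox6b1 also rose, but less, with 0.42, 0.31, 0.38 and 0.20 (mean 0.33 ± 0.09, adjusted p = 0.00843), and the difference of Cox6b1 minus Cox6b2 was −0.86 ± 0.06. Leaving out array 1, 2 or 3 lost the call of Cox6b1, with values of 0.32, 0.30 and 0.34 (adjusted p from 0.0528 to 0.0585).

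Cox6a1, the widely expressed form, was lower, with −0.15, −0.64, −0.01 and −0.40 (mean −0.30 ± 0.28, adjusted p = 0.029), a call lost when any 1 array was left out. Cox6a2, the form of heart and skeletal muscle, had 0.25, 0.34, 0.12 and 0.05 (mean 0.19 ± 0.13) and did not pass (adjusted p = 0.0981). Cox4i1 was higher, with 0.14, 0.35, 0.13 and 0.32 (mean 0.24 ± 0.11, adjusted p = 0.0123), a call also lost when any 1 array was left out. Cox4i2, the form of lung, varied too widely between arrays to place, with 0.16, 1.03, −0.995 and −0.31 (mean −0.03 ± 0.85, adjusted p = 0.951).

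Markers of tissues that carry the restricted isoforms moved in both directions, where 29.1% of all genes were higher and 30.1% lower. Of 9 striated muscle markers tested, 3 were higher (Acta1 at 2.49, Actc1 at 2.45 and Tnnt2 at 3.19). Another 4 were lower (Myog at −0.79, Mb at −0.67, Myh7 at −0.34 and Des at −0.31), and 2 did not pass. The median of the 9 ran from −0.25 to −0.02 on the arrays. All 3 brown fat markers tested were lower, with medians from −1.29 to −0.62. Of 6 male germ cell markers, 1 had values on all arrays and it did not pass (Prm1, −0.05 ± 0.18). The part of such cells in the values of Cox7a1 and Cox6b2 was not tested.

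**Figure D2:**
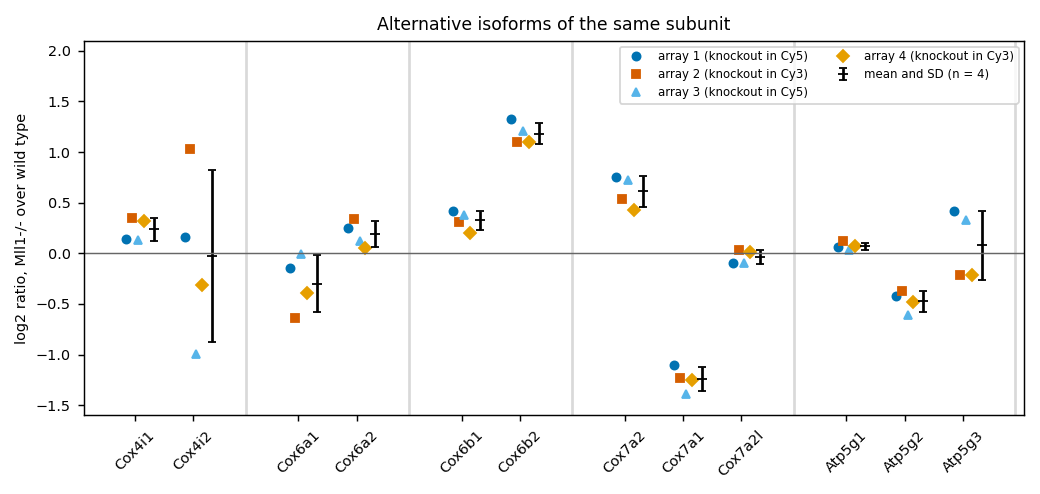
Log2 ratios (Mll1-/- over wild type, vertical axis) of alternative isoforms of the same subunit on each of the 4 arrays, with the mean and SD (n = 4) at the right of each gene. Cox7a1 (mean −1.24) and Cox7a2 (0.61) lie on opposite sides of 0, Cox6b2 (1.18) lies above Cox6b1 (0.33), and Cox4i2 spans −0.995 to 1.03.

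In complex V, 6 of 17 genes (35.3%) were higher and 3 (17.6%) lower, against 29.1% and 30.1% of all genes. The median was 0.08, with array medians of 0.12, 0.08, 0.24 and 0.07. The largest rises were in the stalk and the membrane part. Atp5l, subunit g of the membrane part, had 0.72, 0.50, 0.83 and 0.54 on arrays 1 to 4 (mean 0.65 ± 0.15, SD, n = 4, 1.57-fold, limma adjusted p = 0.00223). Atp5pb, subunit b of the peripheral stalk, had 0.73, 0.57, 0.74 and 0.39 (mean 0.61 ± 0.17, 1.52-fold, adjusted p = 0.00342). Its 4 features gave 1.29, 0.49, 0.42 and 0.24, so a single feature raised that mean. Atp5mpl, a small membrane protein of the complex, had 0.46, 0.46, 0.42 and 0.31 (mean 0.41 ± 0.07, adjusted p = 0.00603). Atp5o, which joins the stalk to the catalytic head, had 0.44, 0.37, 0.37 and 0.29 (mean 0.37 ± 0.06, adjusted p = 0.00642).

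Of the 4 peripheral stalk genes, Atp5pb, Atp5o and Atp5j (0.31 ± 0.09) were higher and Atp5h, subunit d, was lower. Atp5h hardly varied between arrays, with −0.33, −0.32, −0.31 and −0.35 (mean −0.32 ± 0.02, adjusted p = 0.00622). In the catalytic head, Atp5c1 (gamma, 0.19 ± 0.09) was higher and Atp5e (epsilon) was lower, with −0.28, −0.40, −0.35 and −0.35 (mean −0.35 ± 0.05, adjusted p = 0.00656). The catalytic beta subunit Atp5b lay nearest to 0 in the complex (mean −0.01 ± 0.07), and alpha (Atp5a1, 0.10 ± 0.13) and delta (Atp5d, 0.08 ± 0.06) did not pass. The call of Atp5e was lost without array 2 (−0.33, adjusted p 0.0509) and that of Atp5h without array 1 (−0.32, adjusted p 0.0512).

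The c subunit, which forms the rotating ring, is made from 3 genes that encode the same mature protein. Atp5g2 was lower, with −0.43, −0.37, −0.61 and −0.48 (mean −0.47 ± 0.10, 1.39-fold lower, adjusted p = 0.0068). Atp5g1 did not pass and was even, with 0.06, 0.12, 0.04 and 0.07 (mean 0.07 ± 0.04), a difference of Atp5g1 minus Atp5g2 of 0.54 ± 0.08. Atp5g3 had 0.42, −0.21, 0.33 and −0.22 (mean 0.08 ± 0.34), positive with the knockout RNA in Cy5 and negative with it in Cy3.

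Set side by side, the complexes kept part of their order on each array. The median of complex III minus that of complex I was 0.19 to 0.35 on the 4 arrays, that of complex V minus complex I was 0.17 to 0.31, that of complex IV minus complex I was 0.14 to 0.20, and that of complex II minus complex I was 0.03 to 0.17. With complexes taken by prefix, complex I thus had the lowest median on each array, but members are not replicates and no test was made of these differences. They are small beside the middle 50% of all genes, −0.35 to 0.33. With structural subunits alone, the median of complex II was 0.08 in place of −0.09, and those of the other complexes over the mean ratios stayed at −0.10, 0.19, 0.01 and 0.08. On array 4 the median of complex IV was then −0.21, below that of complex I at −0.13, so that complex I was not lowest on each array.

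**Figure D3:**
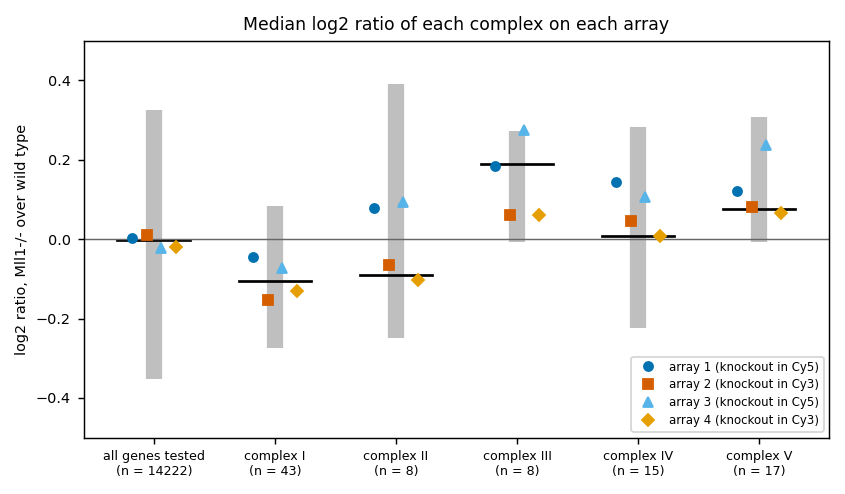
Median log2 ratio (Mll1-/- over wild type, vertical axis) of all genes tested and of each complex on each array (symbols), with the median of mean ratios (black line) and the middle 50% of genes (grey bar). Complex I by prefix (median −0.10) lies lowest on each array, and complexes III (0.19), IV (0.01) and V (0.08) lie above 0 on each array.

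The ratios of the set were also compared between the dye orientations. Of 91 members, 62 (68.1%) had a higher ratio where the knockout RNA carried Cy5, against 50.5% of all genes. At an unadjusted p under 0.05 the dye term passed in 16 members (17.6%), against 14.8% of all genes, and in 0 members after adjustment (limma). Members are not replicates, and the cause of the difference from all genes was not tested. Each orientation was used on 2 arrays, so a dye effect that adds to the log2 ratio cancels in the mean ratios. The median of complex III minus that of complex I was above 0 in both orientations, a difference that was not tested.

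Different features of the same gene mostly gave close values. Of 22 members with several tested features, 13 had feature means within 0.2 of each other and 5 had a range over 0.5. In Ndufaf4, features gave −0.71, 0.73 and 0.86, each past the threshold, so its small mean rise averages opposite calls. In Ndufab1, the acyl carrier protein, features gave −0.34, 0.26 and 0.29, again with opposite calls, and the gene did not pass (0.07 ± 0.09). The features of Atp5pb ran from 0.24 to 1.29, with 3 of 4 past the threshold. Those of Atp5j2, subunit f, were −0.27 and 0.36, of which the first passed. Many genes of the set have near-identical processed copies elsewhere in the genome, and probe sequences were not used here to tell them apart. Whether features of the same gene hold different probes is therefore unknown too.

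**Figure D4:**
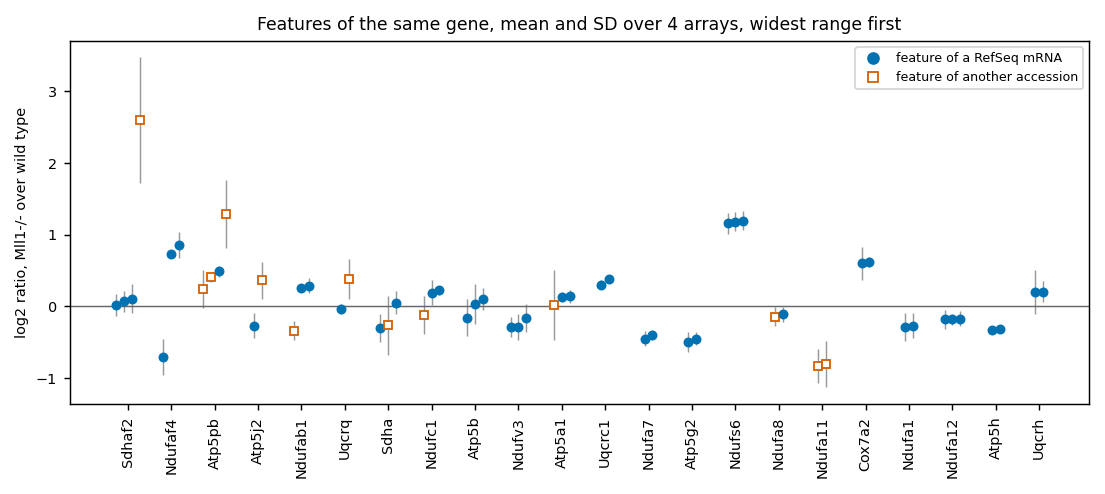
Mean log2 ratio (Mll1-/- over wild type, vertical axis) and SD over 4 arrays of each feature of the 22 members with several tested features, widest range first, with filled circles for features of RefSeq mRNAs and open squares for others. Sdhaf2 has a single feature at 2.60 above 3 near 0, Ndufaf4 has features on both sides of 0, and the 3 features of Ndufs6 coincide.

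The members' ratios followed those of the other genes on their chromosomes. Across the 91 members, the log2 ratio of a member and the median of the other tested genes of its chromosome had r = 0.53 and rho = 0.65, a description across genes that share the 4 arrays and, within a chromosome, the same median. Of the 56 called members, 48 lay on the same side of 0 as their chromosome's median, and of all 91 members 70 did. Most genes of any chromosome lie on the side of its median. The same count was not made over all genes, so it is not shown to be particular to the set.

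Chromosome 15 held Cox6c, Ndufa6, Ndufb9 and Atp5g2, all 4 of them lower (median −0.62), where the other genes had a median of −0.20 and 45.4% of them were lower. Chromosome 9 held Atp5l, Cox5a, Cox7a2, Sdhd, Uqcrc1 and Ndufaf3, of which 5 of 6 were higher (median 0.58), against a median of 0.22 with 47.3% of other genes higher. Chromosome 16 held Atp5j, Atp5o and Ndufb4, all 3 higher (median 0.31), against 0.29 with 51.8% higher. Chromosome 17 held 7 members, of which 5 were lower (median −0.25), against −0.11 with 37.1% of other genes lower. On these chromosomes the called members all lay on the side of the chromosome's median, but elsewhere some did not. On chromosome X, where other genes had a median of 0.06, Ndufa1 (−0.28) and Ndufb11 (−0.34) were lower. Ndufa2 (−0.37), Ndufs1 (0.16), Uqcr10 (0.36) and Atp5c1 (0.19) lay against chromosome medians of 0.01, −0.07, −0.01 and −0.02. Ndufs6 and Cox7a1 also lay against theirs. Chromosome 14, whose genes had a median of −0.70 and were lower in 72.3% of cases, held no member.

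Taken relative to the median of its chromosome on each array, the set had 19 members higher (20.9%) and 24 lower (26.4%), against 28.2% and 28.0% of all genes. Of these members 15 and 19 were also called without that step. Ndufb4 moved to −0.01 (adjusted p 0.813) and Atp5o to 0.08 (adjusted p 0.128), both no longer past the threshold. The values of Cox5a, Cox7a2, Atp5l and Sdhd shrank to 0.41, 0.39, 0.42 and 0.33, and those of Atp5g2 and Cox6b1 to −0.26 and 0.17, all still past it. Among members named by rule, the calls of Cox6a1 (−0.18), Ndufa4 (−0.12), Ndufaf4 (0.17), Ndufaf6 (0.12), Sdhaf3 (−0.10), Sdhc (−0.16), Uqcr11 (−0.07), Uqcrb (−0.03), Uqcrc1 (0.12), Uqcrc2 (0.10) and Uqcrh (0.08) were lost. Calls of other members were lost too: of the set's 26 higher and 30 lower calls, 15 and 19 were kept. The complex medians became −0.10, −0.06, 0.11, 0.00 and 0.09 for complexes I to V. Ndufs6 and Cox7a1 lay against their chromosomes: the other genes of chromosome 13 had a median of −0.15 and those of chromosome 7 a median of 0.15.

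**Figure D5:**
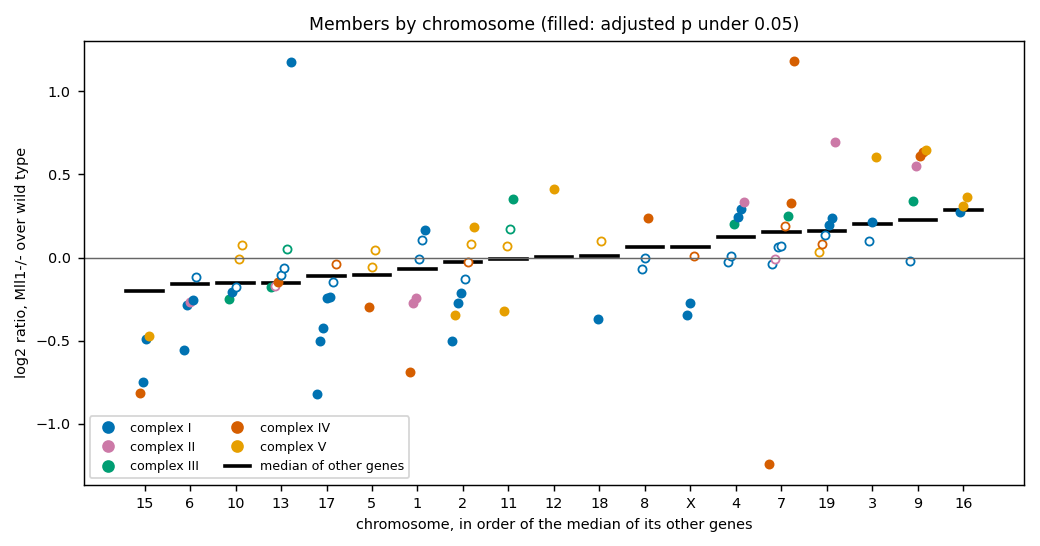
Mean log2 ratio (Mll1-/- over wild type, vertical axis) of each tested member by chromosome, coloured by complex and filled where the adjusted p was under 0.05, with the median of the chromosome's other tested genes as a black bar. Members of chromosome 15 lie below 0 and those of chromosome 16 above 0 with their chromosome medians of −0.20 and 0.29.

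Genes next to the 4 most changed members were read from the RefSeq gene order, a choice made after their values were seen. Ndufs6 lies beside Mrpl36, a protein of the mitochondrial ribosome, which rose by the same measure (1.26 ± 0.06, SD, n = 4, 2.39-fold, limma adjusted p = 0.000961). The next gene on that side, Lpcat1, was also higher (0.53 ± 0.04). On the other side, Irx4 did not pass (−0.17 ± 0.28) and Irx2 was lower (−0.73 ± 0.20). Neighbours of Cox6b2 that were tested, Kmt5c (0.15), Il11 (0.05) and Tmem150b (−0.09), did not pass. Beside Cox7a1, Capns1 was higher (0.33 ± 0.26), and Zfp146 and Tbcb did not pass. Beside Ndufa11, Vmac was lower (−0.25 ± 0.04) and Nrtn higher (0.44 ± 0.11). Of these 4 members, Ndufs6 therefore had the neighbour with the closest value.

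Related mitochondrial gene groups were compared by the same fit, in which 29.1% of all genes were higher and 30.1% lower. Of 76 genes of the mitochondrial ribosome, 22 were higher and 23 lower (median 0.00), shares near those of all genes. Besides Mrpl36, Mrpl3 was higher (0.69), and Mrps16 (−1.55) and Mrpl33 (−0.82) were lower. Of 23 assembly factors of complexes II to V, 7 were higher and 7 lower (30.4% each, near those of all genes, median −0.03). Lrpprc, which stabilises mitochondrial mRNA, was higher (0.52), as was the haem-modifying enzyme Cox10 (0.39), while Cox20 (−1.01) and Cox18 (−0.65), which act on the mitochondrially encoded subunit Cox2, were lower. Of 9 complex I assembly factors without the prefix, 3 (33.3%) were higher, among them Tmem186 (0.46) and Timmdc1 (0.45). The 2 lower ones (22.2%) were Foxred1 (−0.64) and Lyrm2 (−0.37). Of 4 subunits or regulators outside the prefixes, 0 were higher and 1 was lower.

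Of 15 genes for maintaining and transcribing mitochondrial DNA, 9 (60.0%) were lower and 2 (13.3%) higher, with a median of −0.25. The shares of all genes were 30.1% and 29.1%. Tymp, a thymidine phosphorylase, and Mterf1a, of the transcription termination factor family, were both lower (−0.66 each), and the DNA polymerase Polg (0.54) and the single-strand binding protein Ssbp1 (0.18) were higher. Of 17 regulators of mitochondrial biogenesis, 4 (23.5%) were higher and 7 (41.2%) lower (median −0.15). Gabpa, whose ETS motif was among those searched above, was higher (0.99 ± 0.04), as was the coactivator Pprc1 (0.55). The nuclear receptor Ppara (−1.21) and the hypoxia factor Hif1a (−1.09) were lower.

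Of 22 genes of the tricarboxylic acid cycle and pyruvate entry, 5 (22.7%) were higher and 10 (45.5%) lower (median −0.09). The shares of all genes were 29.1% and 30.1%. Idh3a (1.04), a subunit of the NAD-linked isocitrate dehydrogenase, and Pdha1 (0.82), of pyruvate dehydrogenase, were higher. The kinases that inhibit pyruvate dehydrogenase, Pdk4 (−3.32) and Pdk1 (−1.28), were lower. Of 21 electron and nucleotide carriers, 6 were higher and 6 lower (28.6% each, near those of all genes, median 0.07). The ADP/ATP carrier Slc25a5 (0.60) and Coq4 (0.37), of ubiquinone synthesis, were higher. The brown fat uncoupling protein Ucp1 (−1.39) and the outer membrane channel Vdac2 (−0.84) were lower. Both mitochondrially encoded genes with values on all arrays did not pass. Their median of −0.03 averages values of −0.44 and −0.46 on arrays 1 and 2 and of 0.42 and 0.38 on arrays 3 and 4.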

How the data were processed

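The authors' deposited table holds 1 log2 ratio per feature and array, made with Agilent Feature Extraction 10.1.1 per the submitters' processing notes. The log base, the direction, the normalization and the background correction were not given in the sources used here. The range of values points to base 2, and sample titles and Kmt2a give the likely direction. Values were used as deposited.

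The platform annotation, which can be old, gave 33653 of 45018 features 1 gene symbol, 56 several and 11309 none. Features with several symbols or none, or a blank on any array, were left out, which left 24012 features of 14222 genes. Features of a gene were averaged. The limma package (3.58.1, under R 4.3.3) fitted every gene with genotype and a gene-specific dye term, leaving 2 residual degrees of freedom. Adjustment was by Benjamini-Hochberg across all genes, with 0.05 as the threshold. Errors are SDs over the 4 arrays. The fit was also run on simulated data with independent arrays and few changed genes. Those settings differ from these data, so that run is no check of the calls.

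RefSeq tables of GRCm38.p6 gave chromosomes, gene order and promoters, and 79 of 94 members had a promoter window. The members and gene lists were chosen with earlier results of these data known. Named members are, in each complex, up to 4 rises and up to 4 falls past the threshold, largest first and of 1 sign across arrays, the isoform sets, each member with an absolute log2 ratio of at least 1 and the member nearest to 0. In each other list, up to 2 genes each way are named. Other names are given to account for all tested members of a class or chromosome, or for called members against their chromosome's median. These were chosen after their values were seen.

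The alternatives were no dye term, arrays centred, arrays centred and scaled, features with at least 3 values, the middle feature, a robust variance prior, averaged pairs of arrays in both pairings, each array left out, ratios relative to the chromosome, structural subunits only and restricted isoforms left out. Features of RefSeq mRNAs alone and arrays as a random block without the dye term were added after seeing the data.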

Additional observations from a re-analysis of the deposited data

How the results depend on the processing

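Averaging arrays 1 and 2, and 3 and 4, left 11 members higher and 13 lower, against 18.9% and 20.6% of all genes. Leaving out 1 array left 13 to 14 higher and 13 to 15 lower, against 17.8% to 20.1% and 20.2% to 21.1% of all genes. The other alternatives gave 19 to 29 higher (20.9% to 31.9%) and 24 to 34 lower (26.4% to 37.4%). Over all genes the shares in those alternatives were 25.8% to 33.5% and 27.1% to 34.6%. No member was called in the opposite direction in any setting. Of 36 called members named by rule, 17 kept the call in each alternative that gave a value. The median of complex II was 0.082 with structural subunits only, and that of complex IV ran from −0.015 to 0.080 when 1 array was left out. The cause of these shifts was not tested.

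Among the 47 named members signs turned in 8, of which Ndufb4 alone was called: it was −0.011 relative to its chromosome. So taken, Atp5b was 0.168 (adjusted p 0.0384 in limma, up to 0.961 over its alternatives), Cox7a2l 0.067, Cox7b −0.046 and Cox8a −0.091. Atp5b was 0.031 by its middle feature. With 1 array left out, Atp5b ran from −0.042 to 0.031, Cox4i2 from −0.364 to 0.307, Cox7b from −0.015 to 0.030, Ndufb7 from −0.024 to 0.023 and Sdhaf1 from −0.025 to 0.0069. Of named members that did not pass, Cox6a2, Sdhaf1 and Uqcrfs1 also had a call in an alternative, with their sign kept.

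No paired analysis was possible because the arrays form a single group, with no second group that shares replicate numbers. Each ratio already compares both genotypes within an array. The planned random block with the dye term could not be fitted with 4 arrays, and without the dye term its correlation was −0.04.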
